A study of Mus musculus with 39 samples.

Results

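The 10 genes described here, out of 55573 in the count tables, mark macrophages of the peripheral nerve or carry the growth factor signal that macrophages depend on. They were taken by name: the receptor *Csf1r* and its ligands *Csf1* and *Il34*, the macrophage identity genes *Adgre1*, *Cx3cr1* and *Aif1*, the scavenger and uptake receptor genes *Mrc1*, *Cd163* and *Lyve1*, and the monocyte gene *Ly6c2*. All 10 were found and all 10 passed the expression filter, which kept 18442 genes. Their levels were measured by bulk RNA-seq in 39 libraries of distal sciatic nerve endoneurium, the tissue left after the perineurium was stripped off, from 22 mice on a C57BL/6 background that were 2 to 4 months old. All mice were homozygous for the floxed leptin receptor allele (*Lepr* fl/fl). The mice called *Lepr*-ctrl had no Cre. Those called *Lepr*-cKO had the *Dhh*-Cre transgene in addition, in which *Dhh* regulatory sequences drive the recombinase in Schwann cells and not in macrophages. In each mouse 1 sciatic nerve was crushed. The crushed nerve is called injured and the uncrushed nerve of the other side healthy, so the healthy samples come from operated animals. Nerves were taken at 2 or 4 weeks post-crush (wpc) from different mice. At 2 wpc there were 5 healthy and 5 injured *Lepr*-ctrl nerves and 6 healthy and 5 injured *Lepr*-cKO nerves. At 4 wpc there were 5 healthy and 4 injured *Lepr*-ctrl nerves and 5 healthy and 4 injured *Lepr*-cKO nerves. Both nerves were available from 17 mice. Animals are named here by their number, with WT for *Lepr*-ctrl and KO for *Lepr*-cKO mice. The sample titles carry this prefix at 4 wpc only.

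Peripheral nerves hold resident macrophages in the endoneurium between the axons, and others in the outer sheaths and along vessels. After a crush, monocytes from the blood enter the distal nerve, become macrophages and clear myelin debris together with Schwann cells. Survival and division of macrophages depend on the receptor tyrosine kinase CSF1R, which binds the cytokines CSF1 and IL-34. *Adgre1* encodes the surface protein F4/80, *Cx3cr1* the fractalkine receptor and *Aif1* the calcium-binding protein IBA1, which are all common macrophage markers. *Mrc1* encodes the mannose receptor CD206, *Cd163* the receptor for haptoglobin-hemoglobin complexes and *Lyve1* a hyaluronan receptor that is also made by lymphatic endothelium. *Ly6c2* encodes one of the Ly6C antigens by which classical monocytes are recognized.

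A choice of 4 members is shown by the 250 bases before their start in RefSeq, because *Aif1* and *Cx3cr1* were higher and *Cd163* lower in every injury comparison below, while *Mrc1* was not called at 2 wpc. The sequences are those of RefSeq on GRCm38.p6, written 5′ to 3′ on the strand of the gene. Capitals mark GAGGAA or its reverse complement TTCCTC, the core of the motif bound by the myeloid transcription factor PU.1, searched on both strands.
Aif1, chr17:35176053-35176302, minus strand: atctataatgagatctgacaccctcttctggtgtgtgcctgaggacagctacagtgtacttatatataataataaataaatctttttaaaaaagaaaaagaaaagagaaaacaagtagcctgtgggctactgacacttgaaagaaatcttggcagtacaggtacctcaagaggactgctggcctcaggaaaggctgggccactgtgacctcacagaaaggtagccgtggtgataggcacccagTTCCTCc
Cx3cr1, chr9:120068297-120068546, minus strand: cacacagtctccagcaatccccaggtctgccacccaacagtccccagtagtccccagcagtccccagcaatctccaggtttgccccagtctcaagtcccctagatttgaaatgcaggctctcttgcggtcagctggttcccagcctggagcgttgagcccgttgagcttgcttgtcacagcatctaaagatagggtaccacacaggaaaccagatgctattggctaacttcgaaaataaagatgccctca
Mrc1, chr2:14229164-14229413, plus strand: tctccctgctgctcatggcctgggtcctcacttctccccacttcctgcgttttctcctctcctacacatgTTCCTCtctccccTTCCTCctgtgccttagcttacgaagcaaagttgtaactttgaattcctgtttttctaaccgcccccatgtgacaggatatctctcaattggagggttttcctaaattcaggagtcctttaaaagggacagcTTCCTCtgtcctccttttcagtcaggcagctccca
Cd163, chr6:124304401-124304650, plus strand: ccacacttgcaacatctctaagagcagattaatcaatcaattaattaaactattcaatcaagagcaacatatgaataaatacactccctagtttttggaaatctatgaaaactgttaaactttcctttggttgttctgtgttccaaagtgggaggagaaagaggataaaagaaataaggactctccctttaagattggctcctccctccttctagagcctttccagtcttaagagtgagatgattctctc
The search covered 6 of the 10 members, these 4, *Csf1* and *Ly6c2*. At least 1 match was found in 3 of the 6: *Aif1* with 1, *Mrc1* with 3 and *Ly6c2* with 1. *Adgre1*, *Il34* and *Lyve1* were not in the table of start sites. *Csf1r* was left out of the search and of the positions below, so the counts say nothing about it. Of all 32851 start regions of this length in the table, 23.3% held a match. A match is a description of the letters and not a binding site. RefSeq and GENCODE differ in some starts: the *Cx3cr1* region lies wholly within the GENCODE gene given next, and those of *Aif1* and *Mrc1* overlap theirs. In GENCODE on GRCm38 the genes lie at chromosome 17 from 35170991 to 35176068 (*Aif1*), chromosome 9 from 119901616 to 120069879 (*Cx3cr1*), chromosome 2 from 14229392 to 14332057 (*Mrc1*) and chromosome 6 from 124304656 to 124330527 (*Cd163*). *Adgre1* lies at chromosome 17 from 57358691 to 57483527, *Csf1* at chromosome 3 from 107741048 to 107760469, *Il34* at chromosome 8 from 110741829 to 110805924 and *Lyve1* at chromosome 7 from 110850607 to 110863239. *Il34* and *Cx3cr1* share 4.95% and 1.73% of their exon bases with other genes.

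The libraries held 10905806 to 45016322 counts (median 27752451), between 1.92% and 33% of them mitochondrial, and the 4 injured *Lepr*-ctrl nerves at 4 wpc were the shallowest group with 10905806 to 17640587. Levels are given as CPM, the counts scaled to a library of 1e+06 counts, after TMM normalization. *Lepr* itself was not called between the genotypes as labelled: its edgeR log2 fold change against *Lepr*-ctrl was 0.39 (SE 0.29, adjusted p = 0.939) in injured nerves at 2 wpc and -0.54 (SE 0.33, adjusted p = 0.362) at 4 wpc, and 0.12 and 0.33 in healthy nerves. These counts cover all exons and all cell types of the tissue, so they do not check the deletion in Schwann cells. The injured *Lepr*-cKO library of animal KO-126 at 2 wpc held skeletal muscle transcripts, at 35300 CPM over 8 muscle genes against at most 28.2 CPM in every other library. By *Xist* and *Ddx3y* 25 libraries came from females and 14 from males.

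The macrophage identity genes were higher in injured nerves in all 4 comparisons, and the scavenger receptor gene *Cd163* was lower. In *Lepr*-ctrl at 2 wpc, 4 of the 10 members were called higher in injured than in healthy nerves (*Adgre1*, *Cx3cr1*, *Aif1* and *Ly6c2*) and 2 lower (*Cd163* and *Lyve1*), where a call is an edgeR adjusted p under 0.05 with an absolute log2 fold change above 1. Of all genes tested, 19.8% were called higher and 14.3% lower. At 4 wpc *Csf1r* and *Mrc1* joined the members called higher, which made 6, and *Cd163* and *Il34* were the 2 called lower (20.1% and 15.9% of all genes). In *Lepr*-cKO the same 4 were called higher and the same 2 lower at 2 wpc (20.9% and 13.4% of all genes). At 4 wpc 5 *Lepr*-cKO members were called higher, namely *Csf1r*, *Adgre1*, *Cx3cr1*, *Aif1* and *Ly6c2*, and 1, *Cd163*, was called lower (16.8% and 10.8% of all genes). The median log2 fold change of the members was 0.53 and 1.19 in *Lepr*-ctrl at 2 and 4 wpc and 0.41 and 1.06 in *Lepr*-cKO, against medians of 0.08, 0.02, 0.10 and 0.06 over all genes tested. In bulk tissue, a higher level through more cells of a type and through more RNA per cell cannot be told apart.

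**Figure D1:**
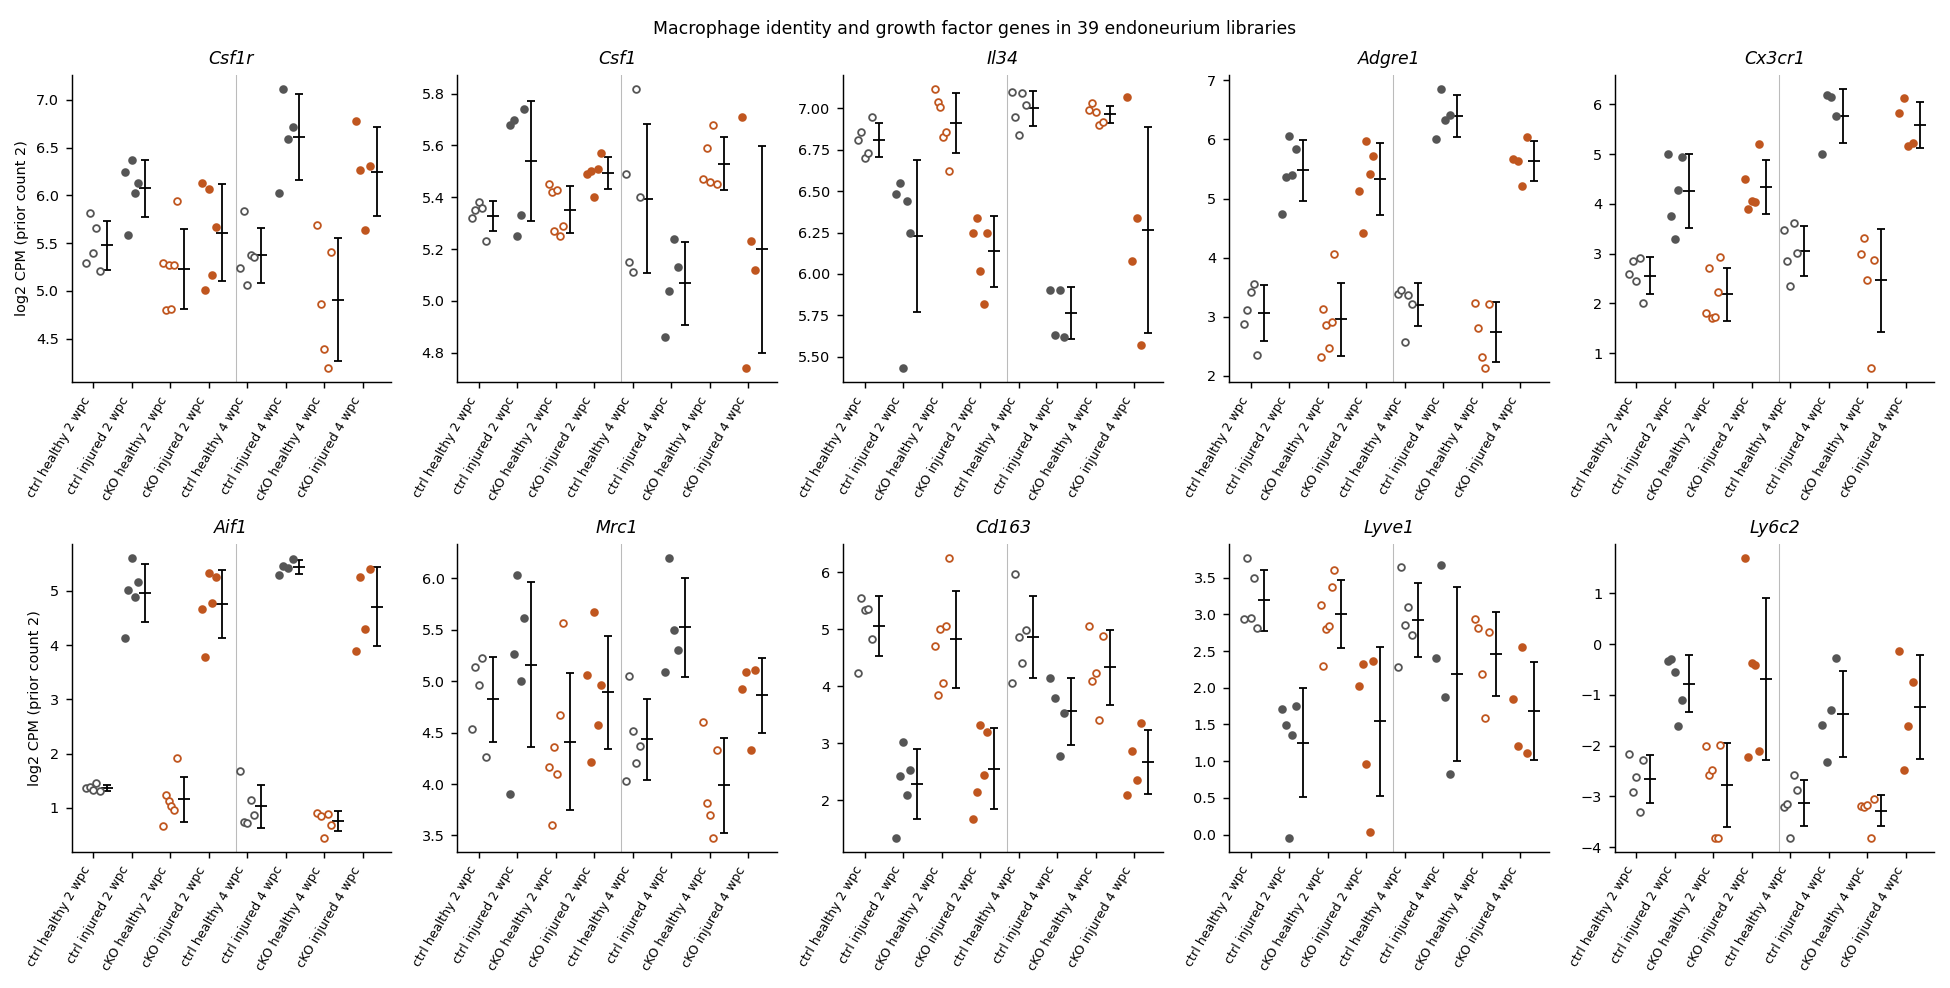
log2 CPM of the 10 members in each library, with a panel per gene, the 8 groups on the x axis (healthy open, injured filled, Lepr-ctrl grey, Lepr-cKO orange) and the mean with SD to the right of each group. Adgre1, Cx3cr1 and Aif1 of all 18 injured nerves sit above every healthy nerve of their own group pair, and Cd163 moves the other way.

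**Figure D2:**
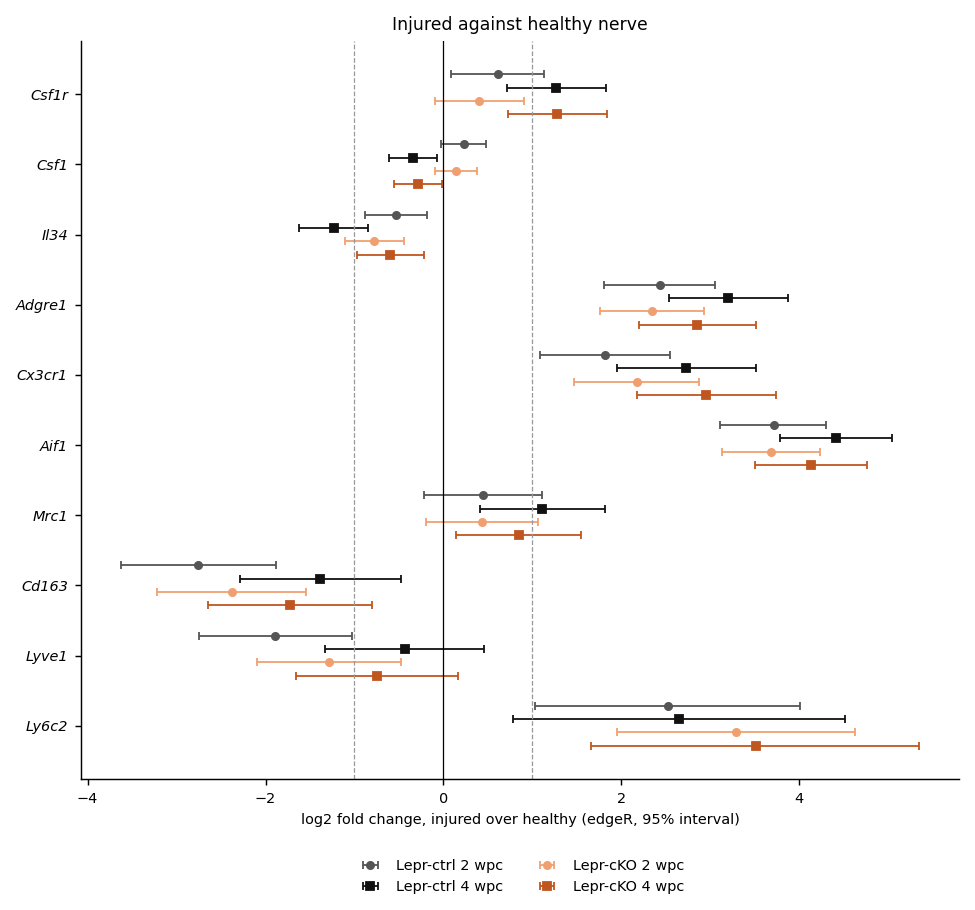
edgeR log2 fold change of each member in injured over healthy nerves with its 95% interval, for Lepr-ctrl (grey and black) and Lepr-cKO (light and dark orange) at 2 wpc (circles) and 4 wpc (squares); dashed lines mark the fold threshold of 1. Aif1 reaches 4.41 in Lepr-ctrl at 4 wpc, Cd163 reaches -2.76 in Lepr-ctrl at 2 wpc, and all 4 intervals of Il34 lie below 0.

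The receptor and its 2 ligands had smaller fold changes than the identity genes, and *Il34* had the opposite sign. *Csf1r* encodes the receptor that most tissue macrophages carry. In *Lepr*-ctrl its level was 36.8 to 56.3 CPM in healthy and 48.3 to 82.7 CPM in injured nerves at 2 wpc, with 4 of 5 injured nerves higher than any healthy one, and 33.4 to 57.2 CPM against 65.1, 96.5, 105 and 139 CPM at 4 wpc, where the groups did not overlap. The log2 fold change was 0.61 (SE 0.26, edgeR adjusted p = 0.0401) at 2 wpc, below the fold threshold, and 1.27 (SE 0.27, adjusted p = 0.000146) at 4 wpc. In *Lepr*-cKO it was 0.40 (SE 0.25, adjusted p = 0.152) at 2 wpc and 1.28 (SE 0.27, adjusted p = 0.000179) at 4 wpc, with groups that overlapped at both times. Within animals, *Csf1r* was higher in the injured nerve in 16 of 17 mice. Of the exon bases of *Csf1r* 15.1% are shared with the gene *Hmgxb3*, so reads from there are uncertain.

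*Csf1*, the ligand made by many stromal and endothelial cells, showed no change past the threshold in any injury comparison. Healthy *Lepr*-ctrl nerves at 2 wpc held 39.9, 40.8, 41.5, 40.9 and 37.5 CPM, and injured ones 51.3, 51.8, 53.5, 38.1 and 40.0 CPM. 3 of the 5 injured nerves were thus above all healthy ones and the other 2 were among them. This gave a log2 fold change of 0.23 (SE 0.12, edgeR adjusted p = 0.11). At 4 wpc the injured *Lepr*-ctrl nerves held 29.0, 32.8, 37.8 and 34.9 CPM against 34.5 to 56.4 CPM in healthy nerves, a log2 fold change of -0.34 (SE 0.13, adjusted p = 0.0253). *Lepr*-cKO gave 0.14 (adjusted p = 0.298) at 2 wpc and -0.29 (adjusted p = 0.0658) at 4 wpc. The sign thus differed between the time points in both genotypes. For *Lepr*-ctrl the response at 4 wpc minus that at 2 wpc was -0.57 (SE 0.18, adjusted p = 0.044), below the fold threshold, and for *Lepr*-cKO it was -0.43 (SE 0.18, adjusted p = 0.237).

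*Il34* encodes the second ligand of CSF1R, known from neurons and keratinocytes. It had the highest level per length of all members in every group but 1. In healthy *Lepr*-ctrl nerves at 2 wpc it was at 112, 116, 104, 106 and 124 CPM, and in injured ones at 89.1, 93.4, 75.8, 43.0 and 87.0 CPM. At 4 wpc healthy *Lepr*-ctrl nerves held 114 to 137 CPM (median 129) and injured ones 59.7, 49.3, 59.6 and 49.1 CPM. Every injured *Lepr*-ctrl nerve was below every healthy one at both times, and the 4 values at 4 wpc lay close together. The log2 fold change was -0.53 (SE 0.17, edgeR adjusted p = 0.00737) at 2 wpc, below the fold threshold, and -1.23 (SE 0.19, adjusted p = 8.14e-07) at 4 wpc. In *Lepr*-cKO the 6 healthy nerves at 2 wpc ranged from 98.5 to 139 CPM around a mean of 121, and the injured ones held 76.0, 80.7, 65.0, 56.6 and 76.2 CPM. At 4 wpc healthy *Lepr*-cKO nerves held at least 119 CPM (SD 4.6, n = 5), and injured ones 134, 67.7, 80.8 and 47.3 CPM. The groups did not overlap at 2 wpc, and at 4 wpc they overlapped through animal KO-169, whose injured nerve was above its own healthy nerve. This gave a log2 fold change of -0.78 (SE 0.17, adjusted p = 0.000128) and -0.60 (SE 0.18, adjusted p = 0.00647). Over the libraries left out in turn the latter ranged from -0.93 to -0.42, with an edgeR adjusted p of at most 0.0418. The value of -0.93 (adjusted p = 1.92e-05) was that without the injured nerve of animal KO-169. That library also had the highest summed level of 8 Schwann cell genes among the injured nerves, 63100 CPM against 10000 to 48600 CPM in the others, and its part in the *Il34* value was not tested. *Il34* was lower in the injured nerve in 16 of 17 mice.

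The balance of the 2 ligands was compared within each library. The log2 ratio of *Csf1* to *Il34* counts, which is not corrected for length, in *Lepr*-ctrl at 2 wpc was -1.48 ± 0.15 (SD, n = 5) for healthy nerves. For injured nerves it was -0.69 ± 0.36 (SD, n = 5), a difference of 0.79 (exact permutation test, two-sided, p = 0.00794, no smaller p being possible here, adjusted p = 0.0113 over 20 tests of 5 ratios). This test, here and for the other ratios, treats the 2 nerves of an animal as independent. An exact test paired within animals gave p = 0.125 with 4 pairs, the smallest possible. The difference was 0.91 in *Lepr*-ctrl at 4 wpc and 0.92 in *Lepr*-cKO at 2 wpc (exact permutation test, adjusted p = 0.0113 for both), and in each of these 3 comparisons all injured nerves were above all healthy ones. In *Lepr*-cKO at 4 wpc the difference was 0.37 (exact permutation test, p = 0.0476, adjusted p = 0.056). It was 0.47 without the injured nerve of animal KO-169 (exact permutation test, adjusted p = 0.0476), 0.47 without that of animal KO-175 (exact permutation test, adjusted p = 0.0446) and 0.43 without the healthy nerve of animal KO-177 (exact permutation test, adjusted p = 0.0357). Over all 9 libraries left out in turn, the difference ranged from 0.17 to 0.47. The injured nerve of animal KO-177 had a ratio of -0.44, against -1.36, -1.34 and -1.1 in KO-169, KO-175 and KO-176. The plot of ratios by library shows this on its left.

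**Figure D3:**
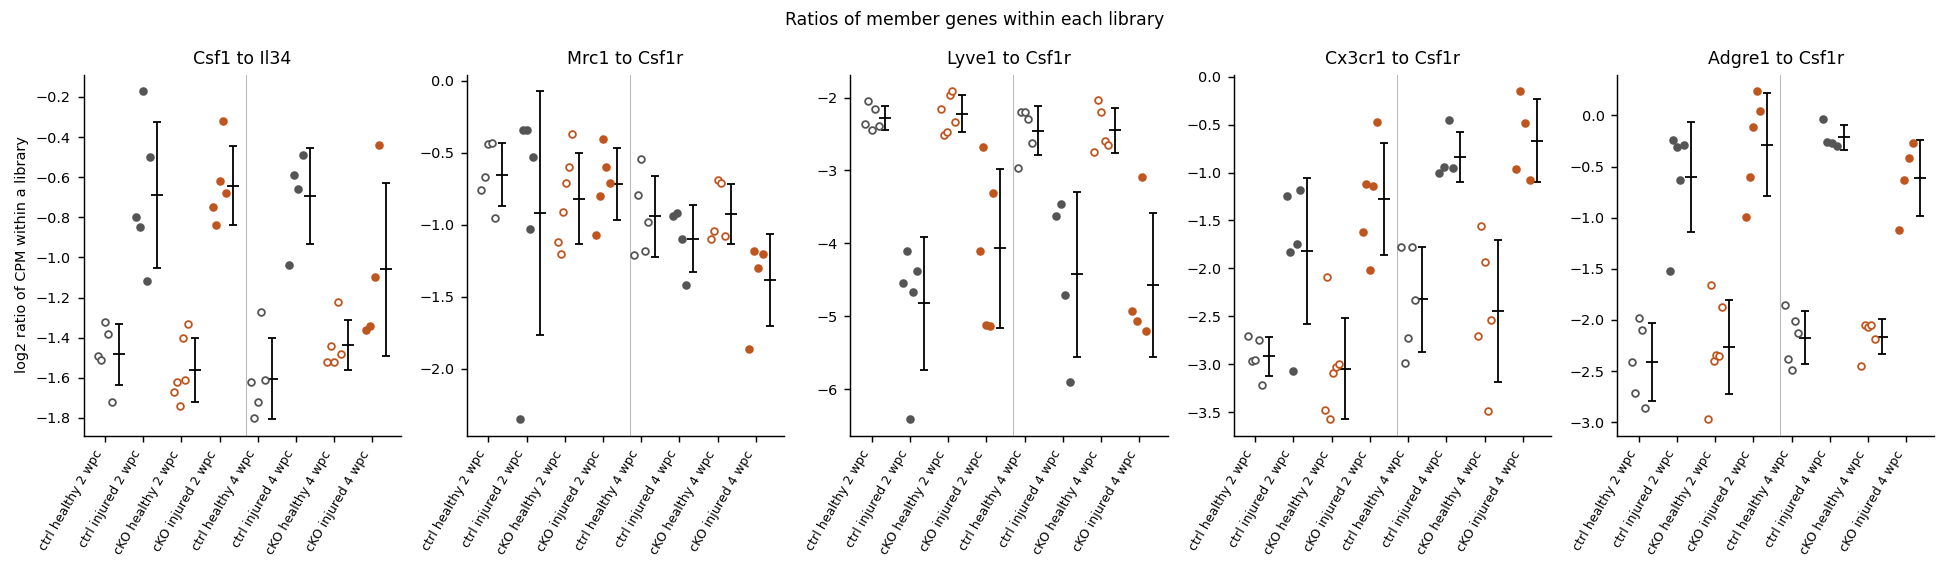
Log2 ratio of CPM of 2 members within each library for the 5 pairs compared, by group, with mean and SD to the right of the points (symbols as in the plot of levels). Lyve1 to Csf1r is lower and Adgre1 to Csf1r higher in every injured group, without overlap in any of the 4 comparisons. Mrc1 to Csf1r overlaps in all comparisons but that of Lepr-cKO at 4 wpc.

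Among the identity genes *Aif1* had the largest fold in each of the 4 injury comparisons. IBA1, its product, is an actin-bundling protein of macrophages and microglia. Healthy *Lepr*-ctrl nerves at 2 wpc held 2.52, 2.54, 2.43, 2.66 and 2.40 CPM, and injured ones 17.6, 32.2, 35.9, 48.9 and 29.6 CPM. At 4 wpc healthy *Lepr*-ctrl nerves held 3.11, 1.58, 1.57, 2.14 and 1.75 CPM and injured ones 39, 43.5, 42.7 and 48.2 CPM. The lowest injured nerve was thus several times above the highest healthy one at both times, and the spread among injured *Lepr*-ctrl nerves was narrower at 4 wpc. The fold was 13.1 (log2 fold change 3.71, SE 0.29, edgeR adjusted p = 5.51e-13) at 2 wpc and 21.2 (4.41, SE 0.31, adjusted p = 9e-14) at 4 wpc. Among *Lepr*-cKO nerves at 2 wpc the 6 healthy ones ranged from 1.52 to 3.71 CPM with a median of 2.04, against 25.3, 13.6, 40.1, 27.2 and 38.1 CPM in injured ones, and at 4 wpc 1.29 to 1.80 CPM stood against 14.8, 37.9, 19.5 and 42.1 CPM. Here the spread among injured nerves was not narrower at 4 wpc. The fold was 12.8 (3.68, SE 0.27, adjusted p = 1.03e-13) and 17.5 (4.13, SE 0.31, adjusted p = 8.18e-13). No injured and healthy group overlapped, and *Aif1* was higher in the injured nerve of all 17 mice with both nerves.

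*Adgre1* was also higher in injured nerves at both times. F4/80, its product, is an adhesion G protein-coupled receptor of mature mouse macrophages. Healthy *Lepr*-ctrl nerves held 7.31, 8.55, 10.6, 11.7 and 5.03 CPM at 2 wpc and 10.4, 11, 5.87, 10.3 and 9.25 CPM at 4 wpc. Injured ones held 26.5, 40.9, 57.4, 66.8 and 42.0 CPM at 2 wpc and 63.9, 116, 79.8 and 85.6 CPM at 4 wpc. The groups stood apart at both times, by a log2 fold change of 2.43 (SE 0.31, edgeR adjusted p = 2.44e-08) and 3.20 (SE 0.33, adjusted p = 2.81e-10). In *Lepr*-cKO healthy nerves ranged from 4.91 to 16.7 CPM at 2 wpc and from 4.32 to 9.40 CPM at 4 wpc, and injured ones held 35.1, 21.2, 62.5, 42.5 and 52.6 CPM and 50.4, 49.6, 37.1 and 65.7 CPM. The log2 fold change was 2.34 (SE 0.29, adjusted p = 1.23e-08) and 2.85 (SE 0.32, adjusted p = 5.89e-09), and it was 2.53 at 2 wpc without the library of animal KO-126. *Adgre1* was higher in the injured nerve of all 17 mice.

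*Cx3cr1*, the receptor for the membrane-bound chemokine CX3CL1 and a marker of resident macrophages and patrolling monocytes, was higher in injured nerves at both times. In *Lepr*-ctrl at 2 wpc it was at 5.94, 7.16, 5.39, 7.44 and 3.92 CPM in healthy and at 32.0, 13.5, 30.9, 9.78 and 19.3 CPM in injured nerves. At 4 wpc healthy *Lepr*-ctrl nerves held 11, 7.13, 5.01, 12.1 and 8.02 CPM and injured ones 32.2, 72.7, 70.5 and 54.6 CPM. The groups did not overlap, though the lowest injured nerve at 2 wpc, that of animal WT-144, was close to the healthy range while its *Aif1* and *Adgre1* were the highest of its group. This gave a log2 fold change of 1.82 (SE 0.36, edgeR adjusted p = 5.17e-05) at 2 wpc and 2.73 (SE 0.38, adjusted p = 1.78e-07) at 4 wpc. In *Lepr*-cKO healthy nerves ranged from 3.17 to 7.55 CPM at 2 wpc, and injured ones held 22.8, 14.8, 16.5, 16.3 and 36.7 CPM. At 4 wpc the healthy *Lepr*-cKO nerves held 7.88, 9.82, 5.45, 1.55 and 7.24 CPM and the injured ones 56.4, 69.4, 35.6 and 37.4 CPM. The groups were again apart, by 2.17 (SE 0.35, adjusted p = 1.48e-06) and 2.95 (SE 0.39, adjusted p = 9.09e-08). *Cx3cr1* was higher in the injured nerve of all 17 mice.

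Both *Adgre1* and *Cx3cr1* were higher relative to *Csf1r* in injured nerves. The log2 ratio of *Adgre1* to *Csf1r* was higher in injured nerves by 1.81 and 1.96 in *Lepr*-ctrl and by 1.98 and 1.55 in *Lepr*-cKO at 2 and 4 wpc (exact permutation test, adjusted p = 0.0113 for each). The ratio of *Cx3cr1* to *Csf1r* was higher by 1.48 in *Lepr*-ctrl at 4 wpc and by 1.77 in *Lepr*-cKO at 2 wpc (exact permutation test, adjusted p = 0.0113 for both) and by 1.77 in *Lepr*-cKO at 4 wpc (exact permutation test, adjusted p = 0.0212). In *Lepr*-ctrl at 2 wpc it was higher by 1.10 (exact permutation test, adjusted p = 0.0496). There the adjusted p was 0.056 by the exact permutation test without the injured nerve of animal WT-123, WT-130, WT-131 or WT-147 or the healthy nerve of animal WT-147, with differences of 0.96, 1.10, 0.94, 1.08 and 1.02.

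The 3 uptake receptor genes did not move as a group. *Cd163*, a marker of resident and perivascular macrophages, was lower in the injured nerve of all 17 mice. Healthy *Lepr*-ctrl nerves held 18.8, 46.3, 40.2, 40.8 and 28.1 CPM at 2 wpc and 16.6, 62.8, 29.1, 21.2 and 31.8 CPM at 4 wpc. Injured ones held 2.48, 5.32, 5.72, 8.12 and 4.21 CPM at 2 wpc and 17.6, 13.8, 6.74 and 11.5 CPM at 4 wpc. The groups were apart at 2 wpc, and at 4 wpc 1 of 4 injured nerves exceeded the lowest healthy value. The log2 fold change was -2.76 (SE 0.43, edgeR adjusted p = 1.2e-06) at 2 wpc, 6.76-fold lower, and -1.39 (SE 0.45, adjusted p = 0.00737) at 4 wpc. Without the healthy nerve of animal WT-170, which at 62.8 CPM was the highest of its group, the value at 4 wpc was -1 (adjusted p = 0.0473) and no longer passed the fold threshold.

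In *Lepr*-cKO the 6 healthy nerves at 2 wpc ranged from 14.3 to 76.3 CPM of *Cd163* with a median of 29.0, and the injured ones held 3.11, 4.35, 9.95, 5.34 and 9.12 CPM. At 4 wpc 33.1, 17.1, 18.9, 10.5 and 29.4 CPM in healthy nerves stood against 4.22, 7.17, 5.02 and 10.2 CPM. No group overlapped at either time, though the highest injured and the lowest healthy nerve at 4 wpc, both of animal KO-177, nearly met. This gave a log2 fold change of -2.38 (SE 0.41, edgeR adjusted p = 6.52e-06) at 2 wpc and -1.73 (SE 0.46, adjusted p = 0.00169) at 4 wpc.

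*Lyve1* was lower at 2 wpc. In *Lepr*-ctrl it was at 7.55, 13.6, 7.66, 11.2 and 6.99 CPM in healthy and 3.20, 2.74, 3.30, 0.902 and 2.49 CPM in injured nerves at 2 wpc, and at 4.78, 12.4, 7.21, 8.48 and 6.50 CPM in healthy and 5.22, 12.6, 3.62 and 1.69 CPM in injured nerves at 4 wpc. The groups were apart at 2 wpc and overlapped at 4 wpc, where the injured nerve of animal WT-171 was above every healthy one. The log2 fold change was -1.89 (SE 0.42, edgeR adjusted p = 0.000228) at 2 wpc and -0.43 (SE 0.44, adjusted p = 0.4) at 4 wpc, and the latter was -1.17 (adjusted p = 0.0299) without animal WT-171. Over the libraries left out in turn, this value at 4 wpc ranged from -1.17 to -0.15 (edgeR adjusted p up to 0.789). In *Lepr*-cKO healthy nerves ranged from 4.81 to 12.1 CPM at 2 wpc and from 2.94 to 7.61 CPM at 4 wpc, against 0.957 to 5.07 CPM and 2.09 to 5.79 CPM in injured nerves. This gave a log2 fold change of -1.29 (SE 0.40, adjusted p = 0.00533) at 2 wpc and -0.75 (SE 0.45, adjusted p = 0.155) at 4 wpc, with overlap at both times. Relative to *Csf1r*, *Lyve1* was lower in injured nerves of all 4 comparisons, with differences of -2.54 and -1.97 in *Lepr*-ctrl and -1.84 and -2.12 in *Lepr*-cKO on the log2 scale (exact permutation test, adjusted p = 0.0113 for each). Of 4 lymphatic endothelial genes tested in *Lepr*-ctrl at 2 wpc 1, *Prox1*, was called higher (3.35) and 1, *Reln*, lower (-1.16), with *Flt4* at -0.05 and *Pdpn* at -0.03. *Prox1* had at most 26 counts in a library and *Ccl21a* had 0 counts in all 39 libraries. The summed level of the list, 749 to 912 CPM in healthy and 186 to 598 CPM in injured nerves, is nearly all *Reln*, whose mean log2 CPM was 9.07 against 2.65 for *Flt4*, the next. Their part in the *Lyve1* values was not tested.

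*Mrc1* had a positive log2 fold change in all 4 injury comparisons and was called higher in 1, *Lepr*-ctrl at 4 wpc. In *Lepr*-ctrl at 2 wpc it was at 19 to 37.3 CPM in healthy nerves, and injured nerves spread from 14.9 CPM in animal WT-123 to 65.3 CPM in animal WT-144, on both sides of the healthy range. The log2 fold change was 0.44 (SE 0.33, edgeR adjusted p = 0.232). At 4 wpc healthy nerves held 16.3, 33.2, 22.9, 18.3 and 20.7 CPM and injured ones 33.9, 73.4, 45.1 and 39.3 CPM. These groups did not overlap, and the log2 fold change was 1.11 (SE 0.35, adjusted p = 0.00587). It was 0.82 (adjusted p = 0.0539) without the injured nerve of animal WT-171 and 0.99 (adjusted p = 0.0131) with the animal as a block, so that neither passed both thresholds. For *Lepr*-cKO it was 0.43 (SE 0.31, adjusted p = 0.227) at 2 wpc and 0.85 (SE 0.35, adjusted p = 0.0378) at 4 wpc, the latter 1.02 (adjusted p = 0.0193) without the healthy nerve of animal KO-169. Over the libraries left out in turn, the *Lepr*-cKO value at 4 wpc ranged from 0.72 to 1.02 (edgeR adjusted p up to 0.0966). Within animals *Mrc1* was higher in the injured nerve in 15 of 17 mice. The log2 ratio of *Mrc1* to *Csf1r* differed by -0.27, -0.16 and 0.10 in *Lepr*-ctrl at 2 and 4 wpc and *Lepr*-cKO at 2 wpc (exact permutation test, adjusted p = 0.706, 0.467 and 0.597). In *Lepr*-cKO at 4 wpc the difference in injured nerves was -0.46, without overlap (exact permutation test, adjusted p = 0.0113), and -0.31 without the injured nerve of animal KO-169 (exact permutation test, adjusted p = 0.084).

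**Figure D4:**
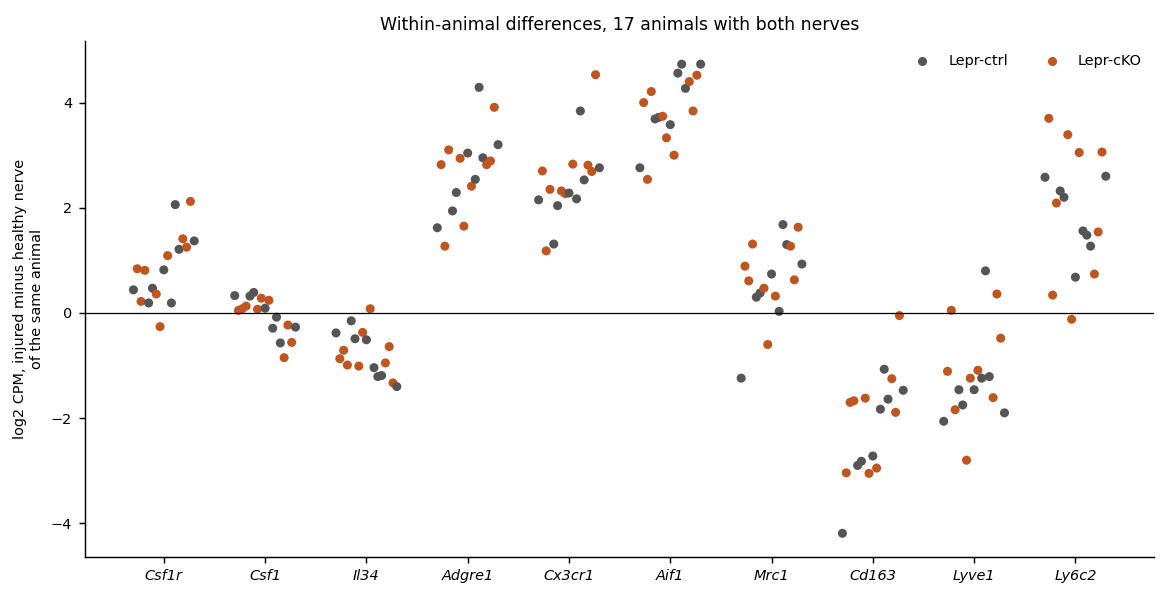
Difference in log2 CPM between the injured and the healthy nerve of the same animal for each member, with a point per mouse (17 mice, Lepr-ctrl grey, Lepr-cKO orange) and a line at 0. All points of Adgre1, Cx3cr1 and Aif1 are above 0, all points of Cd163 are below it, from -4.19 to -0.05, and those of Csf1 lie on both sides.

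*Ly6c2* was the lowest member in every group, and its reads are the least certain. Its coding sequence differs from that of the neighboring gene *Ly6c1*, which endothelium and lymphocytes also express, at 9 of 396 bases (97.7% identity). The first 150 coding bases of both are shown to make this visible, from the GENCODE transcripts whose coding parts lie on GRCm38 within chr15:75108543-75111667 for *Ly6c2* and chr15:75045402-75048511 for *Ly6c1*, both on the minus strand, with the 6 differing bases in capitals.
Ly6c2: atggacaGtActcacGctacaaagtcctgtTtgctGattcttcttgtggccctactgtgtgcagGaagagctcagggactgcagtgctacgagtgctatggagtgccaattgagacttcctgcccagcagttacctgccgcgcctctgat
Ly6c1: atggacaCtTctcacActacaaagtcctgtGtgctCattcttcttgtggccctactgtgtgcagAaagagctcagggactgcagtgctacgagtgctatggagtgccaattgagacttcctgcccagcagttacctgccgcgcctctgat
Of the 347 stretches of 50 coding bases in *Ly6c2*, the read length used, 162 occur unchanged in the *Ly6c1* coding sequence and 316 (91.1%) with at most 2 differences, the number the aligner was allowed. A stretch with differences still matches its own gene better. Over whole *Ly6c2* transcripts, with their untranslated parts, 395 of 2733 such stretches (14.5%) occur unchanged in other genes, 379 of them in *Ly6c1*. *Ly6c1* was at 29.2 to 153 CPM in the 39 libraries, against at most 3.17 CPM for *Ly6c2*.

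Healthy *Lepr*-ctrl nerves had 5, 2, 4, 1 and 3 counts of *Ly6c2* at 2 wpc and injured ones 19, 23, 13, 7 and 12. At 4 wpc 1, 1, 0, 4 and 2 counts in healthy nerves stood against 3, 2, 6 and 8 in injured ones. Relative to library size the groups did not overlap, and the ratio of summed counts was 6.00 (95% exact counting interval 3.41 to 11.2) at 2 wpc and 6.21 (2.59 to 16.4) at 4 wpc. The edgeR log2 fold change was 2.52 (SE 0.73, adjusted p = 0.00327) and 2.65 (SE 0.92, adjusted p = 0.0124), the latter 2.09 (adjusted p = 0.0744) without the injured nerve of animal WT-178. Among *Lepr*-cKO nerves at 2 wpc the 6 healthy ones had 0 to 7 counts and injured ones 110, 5, 19, 17 and 5, so that 110 of 156 counts came from animal KO-125 and the groups overlapped. The 4 injured *Lepr*-cKO nerves at 4 wpc had 23, 2, 5 and 8 counts against 0 to 2 in healthy ones. The ratio of summed counts was 10.4 (6.57 to 17.3) at 2 wpc and 13.3 (5.23 to 43.4) at 4 wpc, and the edgeR log2 fold change 3.29 (SE 0.66, adjusted p = 5.26e-05) and 3.51 (SE 0.91, adjusted p = 0.00145). Without animal KO-125 the former was 2.07 (adjusted p = 0.00379), and without the injured nerve of animal KO-169 the latter was 2.89 (adjusted p = 0.016). The intervals cover counting error only. *Ly6c1* was not called in any of the 4 comparisons, with log2 fold changes of 0.06 and 1 (adjusted p = 0.00417, at the fold threshold) in *Lepr*-ctrl and 0.25 and 0.07 in *Lepr*-cKO at 2 and 4 wpc.

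By edgeR, members were called between the time points in injured and not in healthy nerves. The time points came from different mice, so time and the set of animals cannot be told apart. In injured *Lepr*-ctrl nerves 2 of 10 members (20%) were called higher at 4 than at 2 wpc and 0 lower. Of all 18442 genes tested, 557 were called higher and 794 lower, which is 7.33% in either direction. *Cx3cr1* was higher by 1.45 (SE 0.37, edgeR adjusted p = 0.00482) and *Cd163* by 1.26 (SE 0.44, adjusted p = 0.0392). *Cd163* lost its call, with adjusted p of 0.0566 to 0.14 and values of 1.02 to 1.28, without any of the injured nerves of animals WT-123, WT-130, WT-131 and WT-147 at 2 wpc or WT-170, WT-171 and WT-178 at 4 wpc. *Lyve1* differed by 1.20 (SE 0.45, adjusted p = 0.0509), and DESeq2 called it, with 1.23 (adjusted p = 0.0265). The edgeR value was 0.46 once the injured nerve of animal WT-171 at 4 wpc was left out (adjusted p = 0.546), and it was called without that of WT-173 or WT-178 (1.37, adjusted p = 0.0388, and 1.47, adjusted p = 0.0208). *Adgre1* differed by 0.89 (adjusted p = 0.0357), below the fold threshold, and by 1.05 (adjusted p = 0.016) without animal WT-144. Over the libraries left out in turn it ranged from 0.69 to 1.05 (edgeR adjusted p up to 0.159). *Il34* differed by -0.51 (adjusted p = 0.0443) and *Csf1* by -0.48 (adjusted p = 0.00951).

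In injured *Lepr*-cKO nerves 390 of all genes were called higher and 586 lower at 4 than at 2 wpc, which is 5.29% in either direction. Among the members 1, *Cx3cr1*, was called higher, by 1.22 (SE 0.37, edgeR adjusted p = 0.0215). The call was lost without the injured nerve of animal KO-126, KO-128 or KO-135 at 2 wpc (1.07, 1.09 and 1.13, adjusted p = 0.0503, 0.057 and 0.0509) or KO-169 or KO-175 at 4 wpc (1.12 and 0.96, adjusted p = 0.0534 and 0.108), and in a fit on the 2 groups alone (1.17, adjusted p = 0.0937). In healthy nerves no member was called between the time points by edgeR, by DESeq2 or at an adjusted p alone, and none had an unadjusted p under 0.05. There *Cx3cr1* differed by 0.54 in *Lepr*-ctrl and by 0.43 in *Lepr*-cKO. Of all genes 0.174% were called there for *Lepr*-ctrl and 0.119% for *Lepr*-cKO. The response to injury itself at 4 against 2 wpc gave no member call by edgeR or DESeq2, where 4.42% of all genes were called for *Lepr*-ctrl and 1.42% for *Lepr*-cKO. At an unadjusted p under 0.05 there were 4 members in *Lepr*-ctrl and 2 in *Lepr*-cKO. In *Lepr*-ctrl the differences in response were 1.37 for *Cd163* (adjusted p = 0.143), 1.45 for *Lyve1* (adjusted p = 0.123, and 0.71 without the injured nerve of animal WT-171) and 0.70 for *Aif1* (adjusted p = 0.272). For *Cx3cr1* the difference in response was 0.91 in *Lepr*-ctrl and 0.78 in *Lepr*-cKO. With the animal as a block *Cd163* and *Aif1* were called in *Lepr*-ctrl, at 1.64 (adjusted p = 0.0442) and 1.14 (adjusted p = 0.0483).

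No member was called between the genotypes. In injured nerves at 2 wpc 0 of 10 members were called by edgeR, against 0.569% of all genes, and 0 had an unadjusted p under 0.05. Each of the 105 genes behind this share had its higher level in the *Lepr*-cKO group, which holds the library of animal KO-126 with muscle transcripts. Muscle genes such as *Ckm* (11.94) were among the 105, and the share without that library was not tested. At 4 wpc 0 members were called, against 0.45% of all genes, and 3 members had an unadjusted p under 0.05. In healthy nerves 0 were called at 2 wpc and 0 at 4 wpc, with 0.00542% of all genes at each time, and none had an unadjusted p under 0.05. DESeq2 called none of the members in these 4 comparisons either. The 3 members at 4 wpc were *Il34* with 0.60 (95% interval 0.21 to 1.00, adjusted p = 0.0852), *Adgre1* with -0.77 (-1.43 to -0.11, adjusted p = 0.18) and *Aif1* with -0.61 (-1.19 to -0.02, adjusted p = 0.236). The *Il34* value was 0.26 (adjusted p = 0.507) without the injured nerve of animal KO-169, and the *Adgre1* value -0.60 (adjusted p = 0.382) without that of animal WT-171. The intervals leave room for differences of more than 2-fold in several members, since those of *Mrc1*, *Cd163* and *Lyve1* at 4 wpc ran from -1.44 to 0.05, from -1.87 to 0.05 and from -1.73 to 0.19. The narrowest were those of *Csf1*, from -0.31 to 0.19 at 2 wpc and from -0.12 to 0.46 at 4 wpc.

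**Figure D5:**
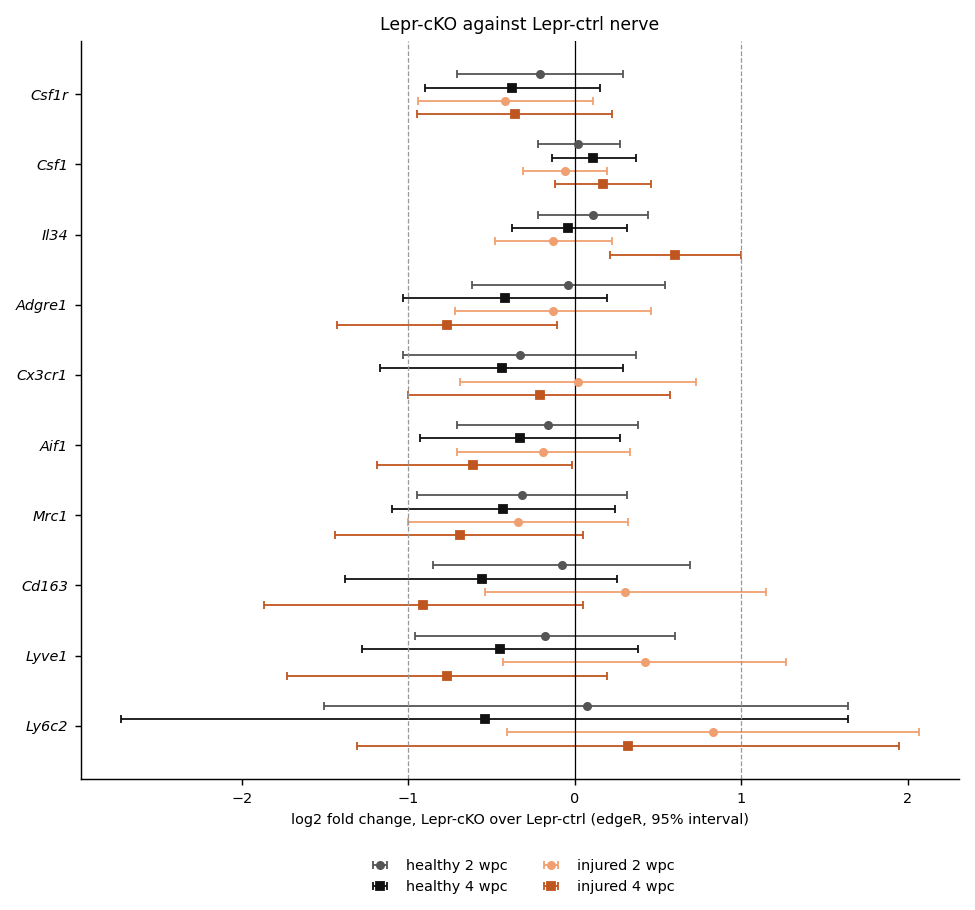
edgeR log2 fold change of each member in Lepr-cKO over Lepr-ctrl nerves with its 95% interval, in healthy (grey and black) and injured (light and dark orange) nerves at 2 wpc (circles) and 4 wpc (squares). Most intervals span 0, and in injured nerves at 4 wpc those of Il34 (0.21 to 1.00), Adgre1 (-1.43 to -0.11) and Aif1 (-1.19 to -0.02) do not, with adjusted p of 0.0852, 0.18 and 0.236.

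The response to injury of *Lepr*-cKO minus that of *Lepr*-ctrl was tested directly. edgeR called 0 of 10 members at 2 wpc and 0 at 4 wpc, where 0% of all genes were called at either time, and DESeq2 called none of the members. *Il34* at 4 wpc was the only member with an unadjusted p under 0.05 (0.64, SE 0.26, adjusted p = 0.402), and it was 0.31 (adjusted p = 0.782) without the injured nerve of animal KO-169. The intervals for *Aif1* were -0.79 to 0.74 at 2 wpc and -1.12 to 0.57 at 4 wpc, and those for *Cx3cr1* -0.64 to 1.35 and -0.84 to 1.30.

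Levels of different genes were compared per kilobase of exon. In healthy *Lepr*-ctrl nerves at 2 wpc *Il34* led with 57.4 ± 4.1 CPM per kb (SD, n = 5), followed by *Csf1r* (7.79 ± 1.41), *Csf1* (7.6 ± 0.295) and *Cd163* (6.38 ± 2.05), which lay within each other's spread. *Mrc1* (4.58), *Lyve1* (3.22), *Adgre1* (2.67), *Aif1* (1.64), *Cx3cr1* (1.33) and *Ly6c2* (0.0341) came after. In injured *Lepr*-ctrl nerves at 2 wpc *Il34* (39.6 ± 10.4) was followed by *Aif1* (21.4 ± 7.38), *Adgre1* (14.4 ± 4.84) and *Csf1r* (11.9 ± 2.27), and *Cd163* (0.946) and *Lyve1* (0.866) stood above *Ly6c2* only. At 4 wpc *Aif1* (28.3 ± 2.48), *Il34* (27.8 ± 3.08) and *Adgre1* (26.7 ± 6.76) of injured *Lepr*-ctrl nerves could not be ordered within their SD (n = 4). In injured *Lepr*-cKO nerves at 4 wpc *Il34* was at 42.1 ± 19 and *Aif1* at 18.6 ± 8.75 (SD, n = 4).

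Other genes whose log2 CPM ran most like that of a member across the 39 libraries were taken from 12773 genes with a mean log2 CPM above 1. All libraries share the split into injured and healthy nerves, so these correlations are descriptions. For *Adgre1* they were *C3ar1*, *Cd68* and *Lyz2* (Pearson r of 0.983, 0.982 and 0.981), and for *Aif1* *Rgs2*, *Gngt2* and *Wfdc17* (0.988, 0.987 and 0.987). *Csf1r* ran with *C5ar1*, *Slc11a1* and *Fcgr1* (0.919, 0.886 and 0.886) and *Cx3cr1* with *Slc11a1*, *Hpgds* and *Fcgr1* (0.911, 0.907 and 0.902). *Il34* ran with *Nptxr*, *Tspan15* and *Gpr37l1* (0.967, 0.965 and 0.958), *Cd163* with *Znhit6*, *Hipk1* and *Rnf144a* (0.939, 0.92 and 0.918) and *Lyve1* with *Podn*, *Pdgfra* and *Gsn* (0.847, 0.845 and 0.845). *Mrc1* (*Clec4a1*, 0.822), *Csf1* (*Mrgprf*, 0.792) and *Ly6c2* (*Nufip1*, 0.859) had no gene above 0.9. Among the members, r was 0.97 between *Adgre1* and *Aif1*, 0.81 between *Csf1r* and *Mrc1*, 0.70 between *Cd163* and *Lyve1* and -0.88 between *Il34* and *Aif1*.

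Other macrophage genes were also higher in injured nerves. Beside the list counts that follow, 16.8% to 20.9% of all genes were called higher and 10.8% to 15.9% lower over the 4 injury comparisons. In *Lepr*-ctrl at 2 wpc 18 of 20 general macrophage genes were called higher and 1, *Mertk*, lower (median log2 fold change 3.02, against 0.08 over all genes). The 3 with the largest rise were *Trem2* (5.20), a lipid receptor, *Ctss* (5.15), a lysosomal protease, and *Cd84* (4.6), while *Mertk*, a receptor for the uptake of dying cells, was at -1.56. At 4 wpc 19 of 20 were called higher and 1 lower, in both genotypes. In *Lepr*-ctrl at 2 wpc, of 13 tested genes of resident or perivascular macrophages 5 were called higher and 2 lower (median 1.08). *Retnla* (5.41), *Clec10a* (2.15) and *Stab1* (1.56) were higher, and *Pf4* (-1.92) and *F13a1* (-1.27) were lower. At 4 wpc 6 of the 13 were called higher and 0 lower in *Lepr*-ctrl, with *Pf4* at 0.07 and *F13a1* at 0.64, and 3 higher and 0 lower in *Lepr*-cKO. Again in *Lepr*-ctrl at 2 wpc, of 9 tested genes known from microglia 5 were called higher and 1, *Siglech*, lower (-1.65), with *Fcrls* at 2.41, *Tmem119* at 1.73 and *Gpr34* at 1.24, and at 4 wpc 4 were called higher and 0 lower. Of 11 tested monocyte genes 8 were called higher in *Lepr*-ctrl at 2 wpc, among them *Plac8* (6.12) and *Ccr2* (2.14), the receptor by which monocytes leave the marrow, and 1, *Vcan* (-2.14), lower. At 4 wpc 9 were called higher and 2 lower.

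Around the receptor and its ligands, 17 genes of myeloid growth factors, their receptors and the transcription factors of the lineage were tested. In *Lepr*-ctrl 12 were called higher and 1 lower at 2 wpc (median 2.65), and 11 and 2 at 4 wpc (median 2.00). In *Lepr*-cKO 12 and 1 were called at 2 wpc (median 2.39) and 9 and 2 at 4 wpc (median 2.06). Among those that rose in *Lepr*-ctrl at 2 wpc were *Csf3r* (3.66, SE 0.35, edgeR adjusted p = 3.96e-11), the G-CSF receptor, and *Spi1* (3.44, SE 0.31, adjusted p = 1.6e-11), which encodes PU.1. *Maf* (-2.06, SE 0.17, adjusted p = 1.08e-12), another transcription factor gene, was lower. Its mean log2 CPM was 8.77, against 3.6 for *Spi1*, and which cells of the tissue it came from was not tested. *Maf* was the 1 gene called lower at 2 wpc in both genotypes. At 4 wpc *Ptprz1*, which encodes a receptor for IL-34, joined it, with -1.67 in *Lepr*-ctrl and -1.32 in *Lepr*-cKO. Of 8 Schwann cell genes 4 were called lower in *Lepr*-ctrl at 2 wpc (median -1.03), and their summed level was 70800 to 89500 CPM in healthy and 10000 to 42700 CPM in injured nerves. The part of this shift in the members' values was not tested.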

How the data were processed

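Sciatic nerve endoneuria of 22 mice were sequenced in 39 libraries. Per the methods and the submitters' processing notes, the authors prepared libraries with an unstranded TruSeq kit, demultiplexed single 50-base reads with bcl2fastq 2.20.0.422, used STAR 2.5 for alignment to GRCm38 (at most 2 mismatches) and obtained gene counts with featureCounts 1.5.0-p1. The deposited values are raw read counts for 55573 genes. Strand and multi-mapping settings are not given in the sources used here, so overlapping, antisense and near-identical genes are uncertain.

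Groups came from the sample titles. In R 4.3.3, edgeR 4.0.16 (TMM, expression filter with minimum count 10 and minimum total 15, quasi-likelihood F test, Benjamini-Hochberg adjustment over 18442 genes) was fitted over all 39 libraries, which share 1 estimate of the spread, and 16 comparisons were tested. Standard errors were derived from the F statistic. log2 CPM used a prior count of 2, and ratios two-sided exact permutation tests, adjusted over 20. Names came from GENCODE M21 on GRCm38 for 99.9% of tested genes. A gene list was described by its counts of calls and its median. Named genes were the 10 members, *Lepr*, the 3 genes most like each member, and per list up to 3 called genes per direction with the largest change in *Lepr*-ctrl at 2 wpc and a mean log2 CPM above 1. *Ly6c1*, *Hmgxb3* and sex genes were added for checks, and *Siglech*, *Ptprz1*, *Prox1*, *Flt4*, *Pdpn* and *Ccl21a* after their values were seen. A gene that the rule also named is not reported here. The members and lists were chosen with earlier results of these data known.

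Library totals were 10905806 to 45016322 counts. No replicates were duplicates, since their counts differed by a chi-square of at least 6.9 per gene. The 2 nerves of an animal share its number in 17 mice, and their deviations from the group means correlated over 5000 genes by -0.116 to 0.567, above 0.1 in 14 of 17. Alternatives were DESeq2 1.42.0, edgeR with its size factors, omission of mitochondrially encoded genes, no filter, a minimum of 10 counts per library, a sex term, only the groups compared, an adjusted p alone, the animal as a block, other priors for ratios and leaving out each library of groups of up to 5. The fits were tested on simulated data.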

Additional observations from a re-analysis of the deposited data

Results flagged for a closer look

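Each member was examined in each of the 8 groups for a sample far from the others, by the gap to its nearest neighbor over the range of the group, with Dixon's 95% limit. Of 80 sets, 4 exceeded the limit, and chance flags about 1 in 20. In injured *Lepr*-ctrl nerves at 2 wpc animal WT-144 stood apart for *Il34* (gap over range 0.732, at 43.0 CPM) and for *Lyve1* (0.78, at 0.902 CPM), below the other nerves in both. Healthy *Lepr*-ctrl animal WT-171 at 4 wpc was low for *Adgre1* (0.729, at 5.87 CPM). Healthy *Lepr*-cKO animal KO-177 at 4 wpc had 0 counts of *Ly6c2* (0.785), where the other 4 had 1 to 2 counts.

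The response of *Csf1* to injury differed between the time points in *Lepr*-ctrl by -0.57 on the log2 scale (SE 0.18, edgeR adjusted p = 0.044). The injured minus healthy difference was 0.23 at 2 wpc and -0.34 at 4 wpc. In *Lepr*-cKO the corresponding difference was -0.43 (adjusted p = 0.237).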

How the results depend on the processing

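Of the 160 member values (10 members in 16 comparisons) 29 were called, and none of the calls reversed under any alternative. All 29 were kept by DESeq2, by its size factors, by leaving out mitochondrially encoded genes and by a term for sex, and 25 of 25 with at least 10 counts in every library, which drops *Ly6c2*. The median of all genes moved by at most 0.04 without the mitochondrially encoded genes, 0.02 with DESeq2 size factors and 0.1 without an expression filter. The injury comparisons kept 6, 8, 6 and 6 called members within 1.5 times in every setting. In injured *Lepr*-ctrl nerves at 4 against 2 wpc the count of 2 became 5 at an adjusted p alone and 1 without a filter, with a range of 1 to 3 when each library was left out. In injured *Lepr*-cKO nerves the count of 1 became 0 with only the groups compared and ranged from 0 to 1 over left-out libraries. For the response at 4 minus 2 wpc in *Lepr*-ctrl the count of 0 became 1 at an adjusted p alone and 2 with the animal as a replicate block. In the blocked fit 25 of 26 calls were kept, and *Mrc1* in *Lepr*-ctrl at 4 wpc was lost (0.99). Over left-out libraries the ratio differences ranged from 0.17 to 0.47 (*Csf1* to *Il34*, *Lepr*-cKO 4 wpc), 0.94 to 1.41 (*Cx3cr1* to *Csf1r*, *Lepr*-ctrl 2 wpc) and -0.53 to -0.31 (*Mrc1* to *Csf1r*, *Lepr*-cKO 4 wpc). Prior counts did not change a ratio call. Paired within animals, with 4 or 5 pairs the smallest exact p is 0.125 or 0.0625, so the pairing allows no call for these ratios, and their differences kept their direction. The cause of these changes was not tested. Libraries of the group of 6 were not left out in turn. Depth limits *Ly6c2* most, with 0 to 7 counts in healthy nerves.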

Other observations

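Beyond the macrophage lists, 6 of 7 dendritic cell genes were called higher in injured nerves in each of the 4 injury comparisons, with *Itgax* at 7.48, *Cd209a* at 4.97 and *Clec9a* at 1.86 in *Lepr*-ctrl at 2 wpc. Of 10 neutrophil genes 4 passed the filter, and their list summed to 2.59 to 64.2 CPM in injured against 0.386 to 0.767 CPM in healthy *Lepr*-ctrl nerves at 2 wpc. Of 10 tested lymphocyte and mast cell genes 4 were called higher in *Lepr*-ctrl at 2 wpc, all of them lymphocyte genes, and no mast cell gene was called. Of 7 blood endothelial genes 2, *Pecam1* (1.5) and *Esam* (1.49), were called higher there. Of all genes tested, 16.8% to 20.9% were called higher and 10.8% to 15.9% lower over the 4 injury comparisons. Adipocyte genes were called higher in 6 of 6 in *Lepr*-ctrl at 2 and 4 wpc and in 1 of 6 in *Lepr*-cKO at each time, where the summed level in healthy nerves reached 252 CPM at 2 wpc. Of 6 fibroblast genes 2 were called lower in *Lepr*-ctrl at 2 wpc. Muscle genes were called higher in 8 of 8 in *Lepr*-cKO at 2 wpc, with 35300 CPM in animal KO-126.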
